A study of Mus musculus with 14 samples.

Results

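The genes described are 10 that encode the building blocks of the basement membrane: the laminin chains Lama1, Lama5, Lamb1 and Lamc1, the collagen IV chains Col4a1 and Col4a2, the linkers Nid1, Nid2 and Hspg2, and the collagen-binding protein Sparc. They were taken by symbol from the 36335 named entries of the deposited count tables, and all 10 had enough counts to enter both the test of total RNA (14641 genes) and the test of labelled RNA (12678 genes). The cells were mouse E14 embryonic stem cells, WT or Mettl3-KO, grown on gelatin with FBS and LIF for 2 weeks in 200 nM INK128, a drug that blocks the mTOR kinase and holds the cells in a paused state, so that every library, WT included, came from drug-treated cells. S4U, a uridine analog that marks new RNA, was given at 100 µM for 12 h with medium changes every 3 h, and cells were collected 0, 1, 3 and 8 h after its removal. RNA was alkylated with 10 mM iodoacetamide, so that S4U is read as a T>C change, and 100 ng went into libraries of transcript 3′ ends. WT had 1, 2, 1 and 2 libraries at these times and Mettl3-KO had 2 at each, which gives 6 WT and 8 Mettl3-KO libraries. Mettl3 is the catalytic subunit of the enzyme that writes m6A on mRNA. The labels give no clone, no deletion design and no origin of the Mettl3-KO line, and do not say whether replicates were separate cultures, so p-values measure the spread between these libraries only.

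A basement membrane is a thin sheet of matrix on which epithelia rest. Laminins are secreted as trimers of an α, a β and a γ chain, so Lama1 or Lama5 joins Lamb1 and Lamc1, and the trimers assemble into a sheet at the cell surface. Collagen IV, built from the chains of Col4a1 and Col4a2, forms the second network, and nidogens and the proteoglycan perlecan tie the networks together. In the early mouse embryo the primitive and parietal endoderm secrete these proteins in large amounts, under the control of GATA factors, and the epiblast becomes a polarised epithelium on the membrane they lay down.

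Gene positions are given as in RefSeq (GRCm38.p6, which underlies mm10). Lamc1 lies on chromosome 1 (153218922 to 153332786), Lama5 on chromosome 2 (180176373 to 180225904), Hspg2 on chromosome 4 (137468751 to 137570630), Sparc on chromosome 11 (55394159 to 55420080), Lamb1 on chromosome 12 (31265146 to 31329644), Nid1 on chromosome 13 (13437602 to 13512275), Nid2 on chromosome 14 (19751257 to 19811787) and Lama1 on chromosome 17 (67697127 to 67822645). Col4a1 (11198423 to 11312889) and Col4a2 (11312805 to 11449287) lie head to head on chromosome 8 and are read away from each other. The start sites of their promoter windows, 11312826 on the minus strand for Col4a1 and 11312805 on the plus strand for Col4a2, are 21 bases apart. The Col4a1 site lies inside the RefSeq spans of both genes, which overlap at their 5′ ends. The promoter windows (250 bases before to 50 after the start) share 78 bases. The plus strand at chr8:11312801-11312830 is shown because it is the start region that the pair shares, with the bases from the Col4a2 start site to the Col4a1 start site in capitals.
Col4a1 and Col4a2 start sites: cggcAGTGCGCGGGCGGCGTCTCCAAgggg
The letters GGGCGG, the core of a GC box, occur there and, on either strand, in 6 of the 7 member promoters that could be searched (Lama5, Hspg2, Col4a1, Col4a2, Lamb1 and Nid1, but not Sparc). In all 32851 promoter windows the share was 35.7%. The GATA-type letters AGATAA were in 0 of the 7 windows, against 11.2% of all windows, and the SOX-type letters ACAAAG in 0 of 7, against 18.7%. These motifs do not overlap one another, the windows of Col4a1 and Col4a2 are not independent, and a match is a description of letters only. With 7 windows a count of 0 is not read as an absence, and Lama1, Lamc1 and Nid2 could not be searched.

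Depth and labels set limits on some libraries. In 12 libraries, 5 WT and 7 Mettl3-KO, the total count was between 6108570 and 26656352 and they are called deep here. Replicate 2 of WT at 1 h held 49159 counts and replicate 2 of Mettl3-KO at 3 h held 602485. Mettl3 itself was at 23.8 to 78.1 CPM (counts rescaled to a common library size by TMM-scaled totals) in the deep WT libraries and at 1.23 to 2.42 in the deep Mettl3-KO libraries. The lines differed in more than Mettl3: the Y-linked gene Ddx3y was at 1.08 to 3.99 CPM in deep WT libraries and at 134 to 213 CPM in deep Mettl3-KO libraries. The library labelled WT 1 h replicate 2 had 8 counts of Ddx3y (171 CPM) and 2 of the Y-linked Eif2s3y (42.7 CPM), which are near Mettl3-KO levels and go against its label, but also 1 count of Mettl3 (21.4 CPM), which is near the lowest deep WT library. The tests were therefore run on all 14 libraries and again on the 12 deep ones. The stem cell markers Pou5f1, Sox2, Nanog, Zfp42, Utf1, Dppa4 and Lin28a were present in every deep library with a summed level of 3191 to 4584 CPM in WT and 3223 to 4113 CPM in Mettl3-KO, and 0 of the 7 passed the test of total RNA.

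Total RNA of 5 of the 10 genes was lower in Mettl3-KO: Lama1, Lama5, Lamc1, Col4a2 and Sparc (edgeR quasi-likelihood test, Benjamini-Hochberg adjusted p under 0.05 over all genes, 14 libraries). Among all genes tested, 9.99% were called lower and 12.1% higher. None of the 10 was called higher, and the 5 called were also the only members with an unadjusted p under 0.05. Without the 2 shallow libraries 6 were called lower, Col4a1 being the addition, where 19.2% of all genes were called lower and 21.8% higher. DESeq2 called 5 lower and 0 higher in 14 libraries, and the share of all genes it called was not counted. The median difference of the 10 genes was -1.19 on the log2 scale, beside 0.05 for all genes. Lamb1, Nid1, Nid2 and Hspg2 did not pass in either fit. In bulk RNA, fewer cells making a transcript and less of it per cell cannot be told apart.

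Lama1, the α chain of the earliest embryonic laminin, had the lowest value relative to WT. In the deep WT libraries it was at 81.5 CPM at 0 h, 115 after 1 h, 82.6 after 3 h and 73.6 and 107 after 8 h, and in the 7 deep Mettl3-KO libraries at 8.04 to 17.4 CPM with a median of 13.0. All 7 Mettl3-KO libraries lay below all 5 WT libraries. How many of all genes separate in this way was not counted, here or for the genes below. The mean in Mettl3-KO was 15.0% of WT at 0 h, 13.7% after 1 h, 18.9% after 3 h and 9.48% after 8 h. The fitted log2 difference was -2.88 ± 0.27 (SE; edgeR adjusted p = 1.21e-05), and -2.92 ± 0.18 in the deep libraries.

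Lama5 encodes the α chain that is common in epithelial basement membranes. It was at 101 CPM in WT at 0 h, 187 after 1 h, 225 after 3 h and 101 and 217 after 8 h, and at 31.8 to 59.1 CPM (median 42.4) in deep Mettl3-KO libraries. Again the groups did not overlap, although the WT libraries themselves ranged from 101 to 225 CPM. The mean in Mettl3-KO was 54.0% of WT at 0 h, 19.8% after 1 h, 21.1% after 3 h and 23.3% after 8 h. The log2 difference was -1.83 ± 0.27 (SE; edgeR adjusted p = 3.86e-04), and -1.91 ± 0.23 in the deep libraries.

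The β chain Lamb1 and the γ chain Lamc1, the partners of Lama1 in its trimer, differed in their calls. Lamc1 was at 251 CPM in WT at 0 h, 275 after 1 h, 257 after 3 h and 236 and 74.1 after 8 h, and at 22.7 to 72.6 CPM (median 52.6) in deep Mettl3-KO libraries. Replicate 2 of WT at 8 h stood near the highest Mettl3-KO library, and the other 4 WT libraries stood far above it. The log2 difference of Lamc1 was -1.95 ± 0.35 (SE; edgeR adjusted p = 1.41e-03), and -2.16 to -1.74 as each library was left out. In the deep libraries it had a 95% interval, from its SE on the normal scale, of -2.68 to -1.33 (edgeR adjusted p = 8.38e-04). Lamb1 was at 93.9, 93.6, 100.3, 95.2 and 88.6 CPM in the deep WT libraries, with an SD of 4.17 CPM (n = 5). In deep Mettl3-KO libraries Lamb1 was at 55.5 to 102 CPM (median 76.9), and 6 of the 7 lay below the lowest WT library. Its log2 difference of -0.30 ± 0.21 did not pass the test (edgeR adjusted p = 0.342), nor did that of -0.27 ± 0.16 in the deep libraries (adjusted p = 0.208).

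Col4a1 and Col4a2 share a start region, and both were lower in every deep Mettl3-KO library than in any deep WT library. Col4a2 was at 15.3 CPM in WT at 0 h, 24.4 after 1 h, 16.4 after 3 h and 14.4 and 18.8 after 8 h, against 2.03 to 7.05 CPM (median 4.45) in Mettl3-KO. Its log2 difference was -2.05 ± 0.39 (SE; edgeR adjusted p = 2.12e-03), and -2.01 ± 0.30 in the deep libraries. Col4a1 was at 50.8, 49.4, 43.9, 36.7 and 33.6 CPM in WT in the order of time, against 12.6 to 18.2 CPM (median 15.7) in Mettl3-KO.
The test of Col4a1 turned on the shallow libraries. In them it stood at 320 CPM (15 counts, the library labelled WT 1 h replicate 2) and 471 CPM (160 counts, Mettl3-KO 3 h replicate 2), while Col4a2 had 0 counts in both. Its log2 difference was -1.44 ± 0.94 in 14 libraries (edgeR adjusted p = 0.320) and -1.45 ± 0.18 in the 12 deep ones (adjusted p = 5.89e-06). Leaving out only Mettl3-KO 3 h replicate 2 gave -1.72 (adjusted p = 2.95e-03).

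None of the linkers passed the test. Nid1, which binds the laminin γ chain, was at 51.3 to 79.4 CPM in deep WT libraries and 33.4 to 108 CPM (median 68.2) in Mettl3-KO, with a log2 difference of -0.14 ± 0.27 (SE), and -0.25 ± 0.20 in the deep libraries. Nid2, its paralog, was at 117, 89.3, 102, 87.5 and 69.9 CPM in WT and at 55.7 to 150 CPM (median 134) in Mettl3-KO. Of the deep Mettl3-KO libraries, 1 lay below the lowest WT library. Nid2 was the only member with an estimate above 0, at 0.38 ± 0.24 in 14 libraries (edgeR adjusted p = 0.289) and 0.48 ± 0.21 in 12 (adjusted p = 0.0712), neither of which passed. Hspg2, the core protein of perlecan, was at 62.6 to 115 CPM in WT and 50.7 to 97.6 CPM (median 67.0) in Mettl3-KO, and its log2 difference was -0.28 ± 0.19, and -0.25 ± 0.17 in the deep libraries.

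Sparc is a secreted glycoprotein that binds collagen IV and a classical product of parietal endoderm. It was at 927 CPM in WT at 0 h, 1500 after 1 h, 1220 after 3 h and 705 and 1248 after 8 h, and at 453 to 597 CPM (median 503) in deep Mettl3-KO libraries. The groups did not overlap. The mean in Mettl3-KO was 53.3% of WT at 0 h, 33.9% after 1 h, 38.6% after 3 h and 60.6% after 8 h. The log2 difference was -0.94 ± 0.24 (SE; edgeR adjusted p = 0.0110), and -1.07 ± 0.18 in the deep libraries.

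Some of the WT spread went with depth. The WT libraries at 0 h and at 8 h replicate 1, with 18088242 and 14558475 counts, had the lowest WT values of Lama5 and Sparc, both named above, and the highest of Hspg2 (105 and 115 CPM, against 62.6 to 70.1 CPM in the other 3). Those other 3 held 6108570 to 10740680 counts. The part of depth in these values was not tested.

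**Figure D1:**
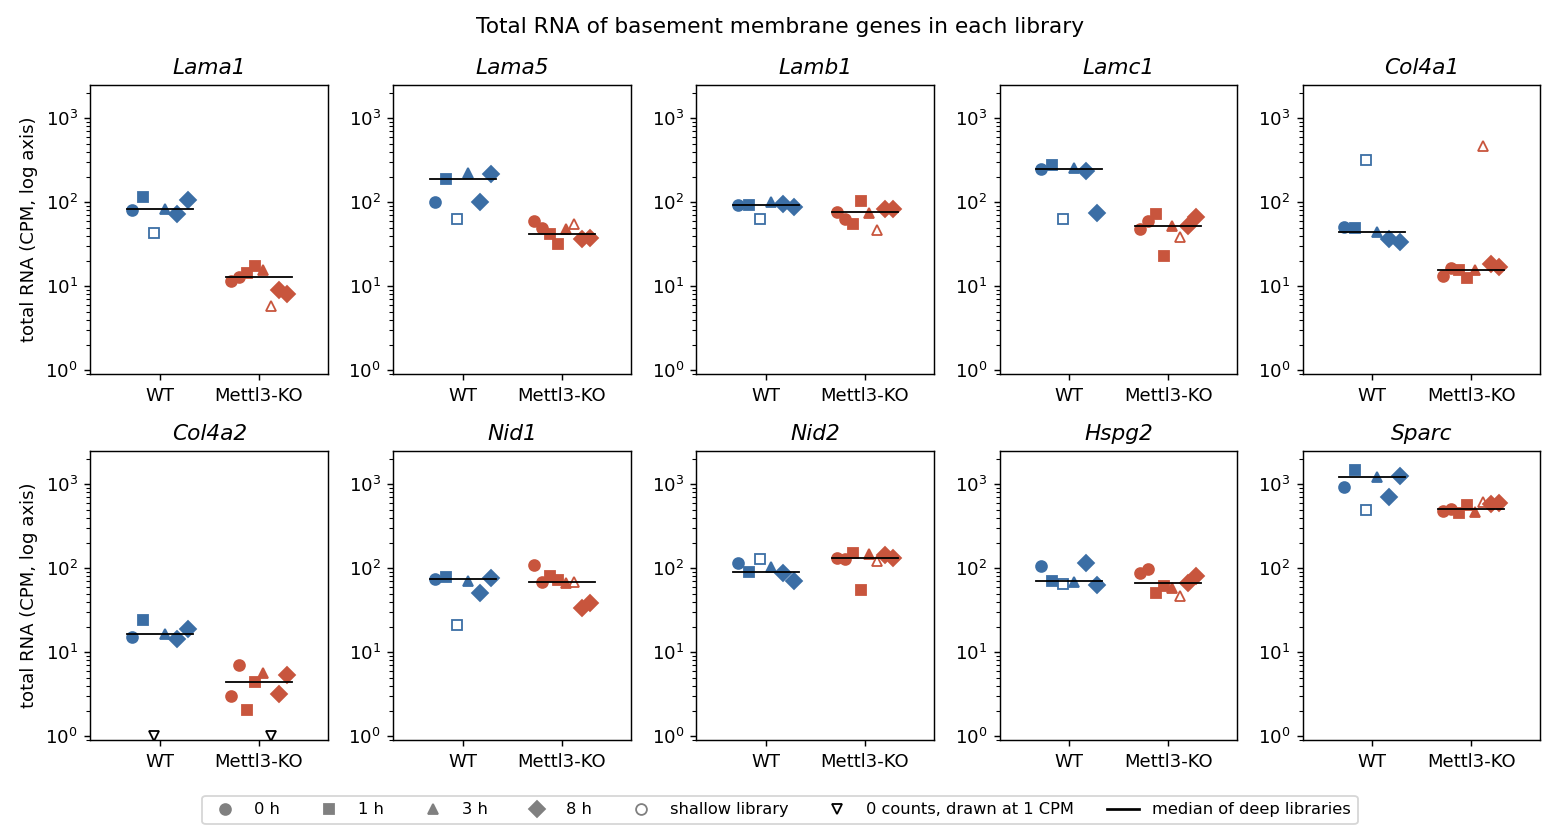
Total RNA of the 10 genes in each library (CPM, log axis), WT in blue and Mettl3-KO in red, with symbols for hours of chase, open symbols for the 2 shallow libraries and a line at the median of the deep libraries. The filled red points lie below all filled blue points for Lama1, Lama5, Lamc1, Col4a1, Col4a2 and Sparc, and the open Col4a1 symbols stand apart at 320 and 471 CPM. The share of all genes that separate in this way was not counted.

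**Figure D2:**
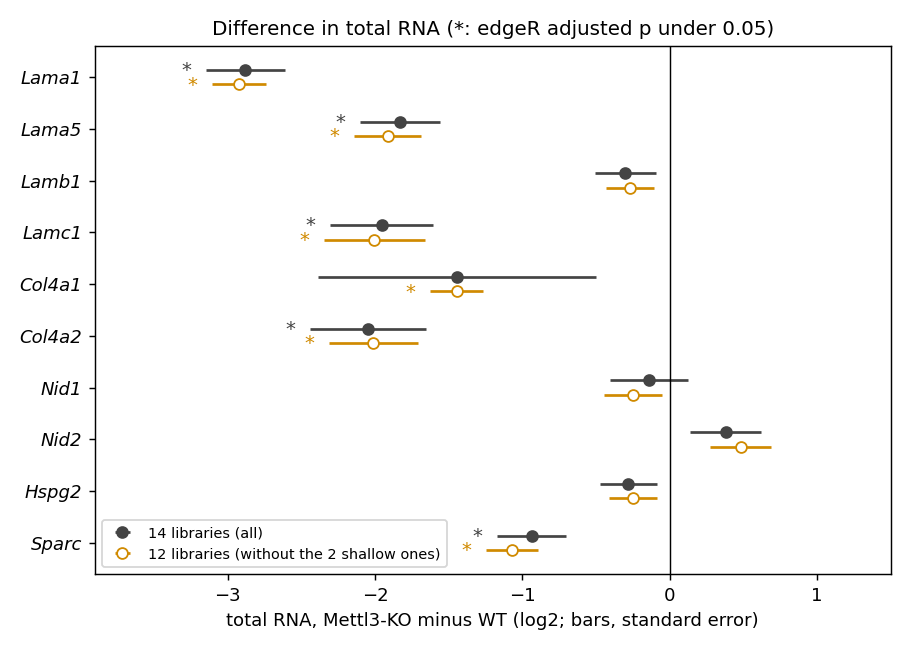
Log2 difference in total RNA, Mettl3-KO minus WT, with its standard error, in 14 libraries (filled) and in the 12 deep libraries (open). Lama1 lies lowest at -2.88, Nid2 is the only gene right of 0, and Col4a1 has nearly the same estimate but a far narrower error in the 12 libraries.

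Ratios of counts within a library do not depend on the scaling between libraries. They were not among the planned tests. They use the same counts as the tests of total RNA above, so they are not independent support for those calls. The log2 ratio of each pair of chains, partners in a trimer or the alternative α chains, was compared between genotypes in the 12 deep libraries by a two-sided exact permutation test of genotype within chase time (108 assignments, smallest p 0.00926), adjusted over 4 ratios. The ratio of Lama1 to Lamb1 was -0.06 ± 0.32 (SD, n = 5) in WT and -2.62 ± 0.52 (SD, n = 7) in Mettl3-KO. With chase time matched it differed by -2.52 (exact permutation p = 0.00926, adjusted p = 0.0185). Lamc1 to Lamb1 went from 1.08 ± 0.75 to -0.58 ± 0.80, a matched difference of -1.78 (exact permutation p = 0.0278, adjusted p = 0.0370). Lama1 to Lama5 went from -0.78 ± 0.46 to -1.79 ± 0.50, a matched difference of -0.98 (exact permutation p = 0.00926, adjusted p = 0.0185). For Col4a1 to Col4a2 the ratio was 1.27 ± 0.35 in WT and 1.91 ± 0.63 in Mettl3-KO, and the matched difference of 0.54 did not pass (exact permutation p = 0.157). Leaving out WT 0 h replicate 1 moved the Lama1 to Lama5 difference to -0.69 (exact permutation p = 0.0556). The call on Lamc1 to Lamb1 was lost when any of 6 libraries was left out, WT at 0 h or 3 h, either Mettl3-KO at 0 h, Mettl3-KO at 3 h replicate 1 or at 8 h replicate 1, with differences of -1.85 to -1.71 and exact permutation p of 0.0556 to 0.111, which rest on fewer assignments.

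**Figure D3:**
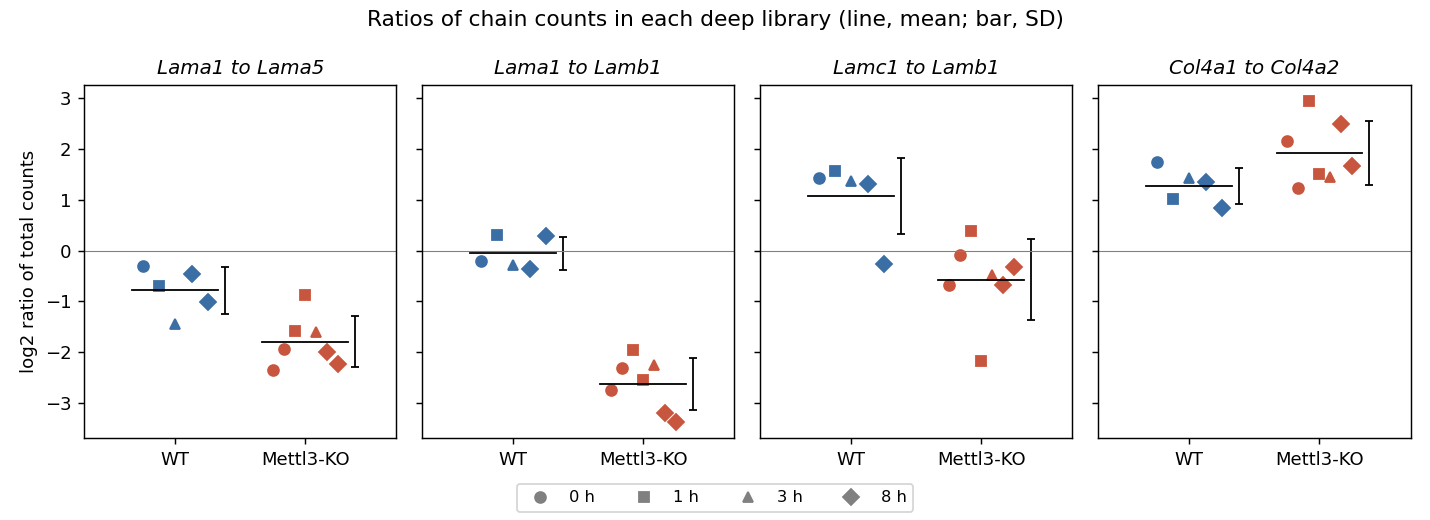
Log2 ratio of the total counts of 2 chains in each deep library, with the mean (line) and SD (bar) per genotype and symbols for hours of chase. The ratio of Lama1 to Lamb1 lies between -0.37 and 0.30 in the 5 WT libraries and between -3.38 and -1.96 in the 7 Mettl3-KO libraries.

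A change of total RNA over the chase would bear on how label loss is read. In 14 libraries 0 of the 10 were called as changing over hours in WT or in Mettl3-KO, or as differing in slope (edgeR, with 0, 1 and 1 members at an unadjusted p under 0.05), and 0% of all genes were called in either direction of each of these tests. Nid1 had the lowest Mettl3-KO slope: 108 and 68.2 CPM at 0 h, 80.6 and 72.1 after 1 h, 66.4 after 3 h in the deep library and 33.4 and 38.5 at the end. The fitted Nid1 slope was -0.16 ± 0.05 log2 per hour in 14 libraries (edgeR adjusted p = 0.637) and -0.16 ± 0.03 in 12 (adjusted p = 8.43e-03), where 2.2% of all genes were called as falling. DESeq2 also called Nid1, alone of the 10 genes, in 14 libraries, and the share of all genes it called was not counted. The difference in the Nid1 slope between genotypes did not pass (adjusted p = 0.165 in 12 libraries).

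Labelled RNA at the end of the pulse, as fitted, was lower for most genes whose total RNA was lower. Here and below, a difference in labelled RNA at 0 h is the 0 h value of a line fitted over all chase times. It is not the difference between the 0 h libraries alone, where WT had 1. On a scale of T>C conversion counts per unit of the library's total RNA, 4 of the 10 genes were lower in Mettl3-KO (edgeR, 14 libraries). Their fitted log2 differences with SE were -3.10 ± 0.55 for Lama1, -2.67 ± 0.54 for Lamc1, -2.25 ± 0.51 for Lama5 and -1.54 ± 0.46 for Sparc. In the 0 h libraries themselves, conversion counts as CPM were 34.3 in WT against 2.84 and 1.62 in Mettl3-KO for Lama1. They were 139 against 21.1 and 18.3 for Lamc1, 51.0 against 19.8 and 16.8 for Lama5, and 303 against 115 and 130 for Sparc. The call on Sparc (adjusted p = 0.0209) was lost without WT 1 h replicate 1 (-1.33, adjusted p = 0.148), WT 3 h replicate 1 (-1.36), Mettl3-KO 0 h replicate 1 (-1.50) or 2 (-1.55), or Mettl3-KO 1 h replicate 1 (-1.52). Among all genes 6.52% were called lower and 1.33% higher, and the median of all genes was -0.37. None of the 10 was called higher, and each of the 6 with an unadjusted p under 0.05 was lower. In the 12 deep libraries 5 were lower, with Col4a1 added (-1.91 ± 0.62, adjusted p = 0.0341), where 8.53% of all genes were. In 14 libraries Col4a2 did not pass, at -2.10 ± 0.73 (adjusted p = 0.0566), and it passed without WT 3 h, either WT 8 h library, either Mettl3-KO 3 h library or Mettl3-KO 8 h replicate 2 (adjusted p = 0.0398 to 0.0456).
Set against each gene's own total count, the fitted labelled share at 0 h did not differ by the test in any of the 10 genes (edgeR, 0 with an unadjusted p under 0.05). Their log2 differences were between -0.69 and -0.07, beside -0.41 for all genes, of which 0.00789% were called lower. In the 12 deep libraries they were between -0.65 and -0.09, also with 0 at an unadjusted p under 0.05.

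The labelled share of counts shows the loss for each gene, with exact Clopper-Pearson 95% intervals that cover counting error only. In WT, Lama5 went from 50.6% of its counts at 0 h to 31.6% after 1 h, 22.3% after 3 h and 1.96% and 2.25% after 8 h. In Mettl3-KO it went from 33.5% and 33.9% to 29.9% and 30.7%, then 17.4%, then 3.41% and 7.02%. Mettl3-KO thus began lower and ended higher, as did the libraries as a whole, whose labelled share was 39.4% in WT and 26.1% and 26.6% in Mettl3-KO at 0 h, and 4.52% and 3.72% in WT and 4.90% and 4.97% in Mettl3-KO at 8 h. Lamc1 was at 55.6% in WT at 0 h, 40.1% after 1 h, 38.4% after 3 h and 9.66% and 2.77% after 8 h, so its 8 h replicates lay far apart, and at 44.0% and 30.4% in Mettl3-KO at 0 h, 40.5% and 47.5% after 1 h, 29.1% after 3 h and 6.31% and 6.42% at 8 h. Lama1 was at 42.1%, 26.4%, 24.5% and then 4.19% and 4.55% in WT, and at 24.6% and 12.5%, 24.8% and 31.5%, 18.3% and then 4.90% and 3.33% in Mettl3-KO, where the 2 libraries at 0 h lay apart, with intervals of 18.7% to 31.3% on 195 counts and 8.33% to 17.8% on 208 counts. Col4a2 was the least precise, with 13.9% (4.67% to 29.5%) on 36 counts and 2.84% (0.778% to 7.10%) on 141 counts in Mettl3-KO at 8 h. For Nid2 the shares were 42.8%, 37.6%, 36.2% and then 4.62% and 5.87% in WT, and 29.1% and 31.8%, 31.4% and 33.3%, 27.5% and then 10.1% and 8.83% in Mettl3-KO. Both Mettl3-KO values of Nid2 at 8 h were above both WT values. The same held for Lama5, Nid1, Hspg2 and Sparc, as for the libraries as a whole. The Mettl3-KO values at 8 h were 5.60% and 7.42% for Hspg2 (WT 5.13% and 3.27%), 12.3% and 12.2% for Nid1 (WT 7.33% and 7.84%) and 10.5% and 11.1% for Sparc (WT 8.53% and 7.19%). Col4a1 had 0 conversion counts of 213 in WT 8 h replicate 2, where 3 counts, the limit that a count of 0 allows, would be a share of 1.41%, and it was at 9.70% in replicate 1.

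**Figure D4:**
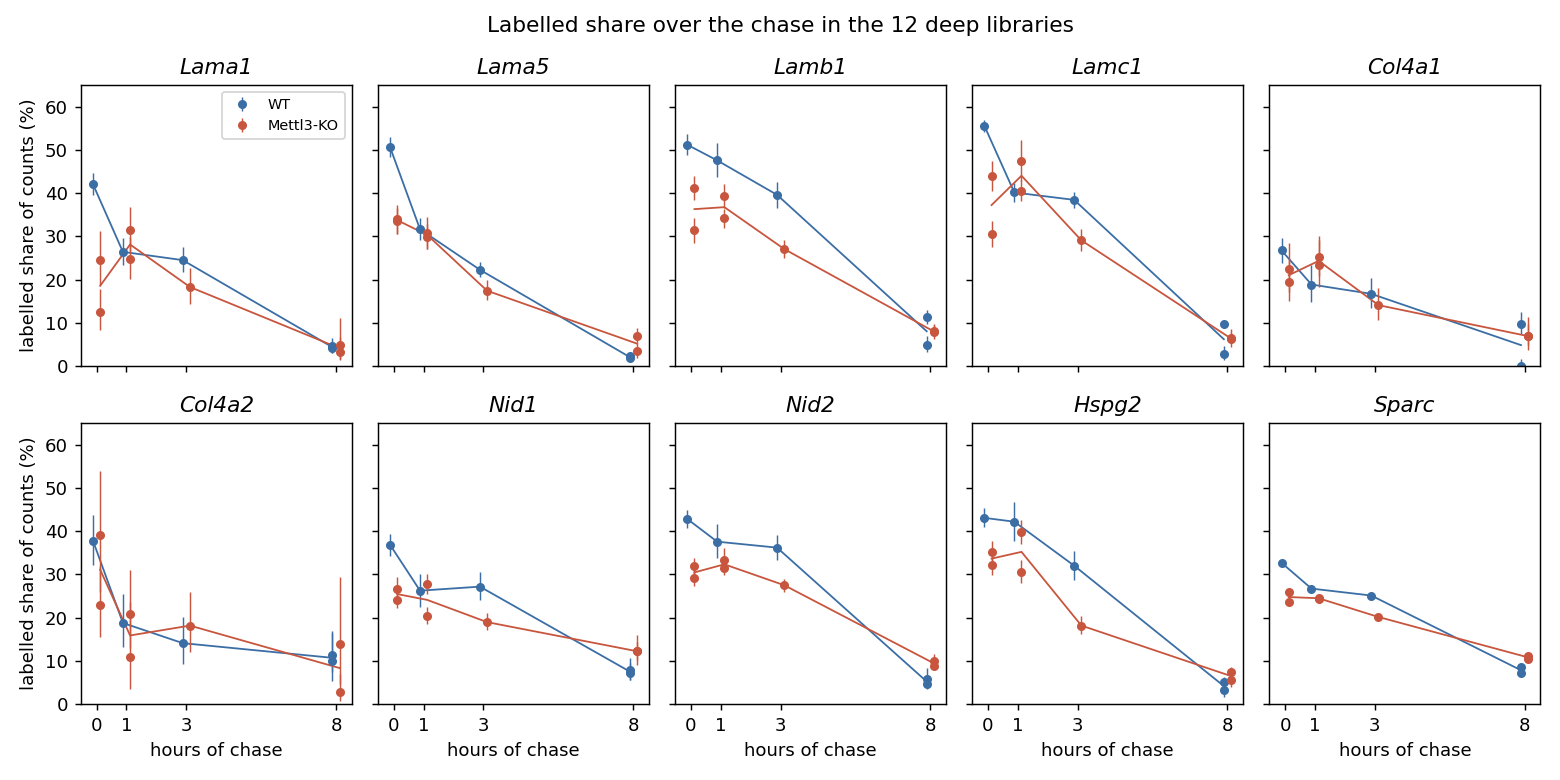
Labelled share of each gene's counts (%) against hours of chase in the 12 deep libraries, WT in blue and Mettl3-KO in red, with exact 95% intervals for counting error and lines through the means. At 0 h WT lies above Mettl3-KO for Lama5 (50.6% against 33.5% and 33.9%), and at 8 h Lama5, Nid1, Nid2, Hspg2 and Sparc lie above both WT libraries in both Mettl3-KO libraries.

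Label loss over the chase was called in 9 of the 10 genes in WT, where 91.1% of all genes were called, and in 8 of 10 in Mettl3-KO, where 88.1% were (edgeR, 14 libraries). Col4a2, which has the fewest counts, did not pass in WT (-0.19 ± 0.12 log2 per hour, adjusted p = 0.102), and Col4a1 (-0.19 ± 0.10, adjusted p = 0.0602) and Sparc (-0.12 ± 0.07, adjusted p = 0.0857) did not in Mettl3-KO. In the 12 deep libraries Sparc passed in Mettl3-KO (adjusted p = 0.0114) and Col4a2 no longer did (adjusted p = 0.0549). The Mettl3-KO call on Col4a2 was lost in 7 of the 14 fits that leave out 1 library, at slopes of -0.25 to -0.16. Col4a1 passed in Mettl3-KO without Mettl3-KO 3 h replicate 2 or either WT 8 h library, and Sparc without the library labelled WT 1 h replicate 2 (-0.12, adjusted p = 0.0277). In a fit to 0, 1 and 3 h alone, which uses fewer libraries, label loss was called in 0 of the 10 genes in either genotype. The share of all genes called in that fit was not counted. Half-lives of the fitted label thus depend on the 8 h libraries, and they take no account of dilution by cell division. In WT they ran from 1.86 h for Lama5 and 2.11 h for Nid2 through 2.37 h for Lamc1, 2.41 h for Hspg2, 2.53 h for Lama1, 2.94 h for Lamb1, 2.97 h for Col4a1 and 3.27 h for Nid1 to 3.67 h for Sparc and 5.13 h for Col4a2. The median slope over all genes corresponded to 1.81 h in WT. In Mettl3-KO the order began with Lama1 at 2.45 h and Lama5 at 2.60 h, went on with Hspg2 (3.14 h), Lamc1, Nid1 (3.43 h), Lamb1 (3.77 h), Col4a2 (4.10 h), Nid2 (5.10 h) and Col4a1 (5.39 h), and ended with Sparc at 8.03 h, beside 2.12 h for all genes. Neighbours in these orders lie within their standard errors. In the 12 deep libraries they ran from 1.78 h for Lama5 to 5.03 h for Col4a2 in WT and from 2.46 h for Lama1 to 7.96 h for Sparc in Mettl3-KO. The fitted half-lives of all 10 genes were longer than that of the median slope in both genotypes, but no test compared them. The slopes of Lama5 and Nid2 in WT and of Lama1 in Mettl3-KO lay within their standard errors of the median slope. With label scaled to the total count of the gene itself, the half-life of Lama5 in WT was shorter than that of the median slope (1.76 h against 1.82 h). The order in Mettl3-KO also changed with that scaling. It ran from 2.87 h for Lamc1 to 6.39 h for Sparc and 7.38 h for Nid1, and label loss was called in all 10 genes there. The WT replicates at 8 h decided the slopes of Col4a1 and Lamc1. The Col4a1 slope in WT was -0.34 log2 per hour, -0.75 without 8 h replicate 1 and -0.22 without replicate 2 (adjusted p = 0.0517). That of Lamc1 was -0.42, -0.70 without replicate 1 and -0.29 without replicate 2. Without WT 8 h replicate 1 the Sparc slope in WT was -0.22 (adjusted p = 0.0585), and the Nid2 slope in Mettl3-KO no longer passed without 8 h replicate 1 (-0.20, adjusted p = 0.0573) or 2 (-0.17, adjusted p = 0.109).

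None of the 10 genes differed between genotypes in the rate of label loss by the test (edgeR and DESeq2, 0 called slower and 0 called faster), while 2.16% of all genes were called slower in Mettl3-KO and 0.197% faster. The differences were between -0.05 and 0.28 log2 per hour with a median of 0.10, beside 0.09 for all genes. Nid2 was the only member with an unadjusted p under 0.05, at 0.28 ± 0.11 (edgeR adjusted p = 0.143), which means slower loss in Mettl3-KO. It was at 0.27 ± 0.09 (adjusted p = 0.0792) in the 12 deep libraries, where Sparc also had an unadjusted p under 0.05. Lama1, with the largest difference in total RNA, had a loss rate difference of -0.01 ± 0.10. Of the 10 genes, the authors' deposited table of fitted half-lives lists 3, with no unit in its header. The authors' deposited table gives 2.52 in WT and 2.79 in KO for Lama1, 2.07 and 4.04 for Lama5, and 2.12 and 4.40 for Hspg2. The medians of its 6985 genes in the authors' deposited table are 1.69 and 2.52.

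Among the other laminin chains, 2 of the 4 that could be tested, of 8 listed with the related netrins, were also lower in total RNA: Lama3 (-3.02 ± 0.53) and Lamb2 (-1.16 ± 0.29), and 0 were higher (edgeR, 14 libraries). In the 12 deep libraries 2 were lower and 1 higher, Ntn1 (0.60 ± 0.20, adjusted p = 0.0224). Of all genes, 9.99% were called lower and 12.1% higher in 14 libraries, and 19.2% and 21.8% in 12. Lama3 is the α chain of the epithelial laminin of hemidesmosomes, and Lamb2 is the β chain that can stand in for Lamb1. Lama3 was at 5.03 to 12.0 CPM in deep WT libraries and 0.125 to 1.89 CPM in Mettl3-KO, and Lamb2 at 31.4 to 55.2 and 12.5 to 20.7 CPM. The groups did not overlap for either of these chains, and the share of all genes that separate in this way was not counted. Both were lower in fitted labelled RNA at 0 h as well (Lama3 -3.10, edgeR adjusted p = 0.0488, and Lamb2 -2.01, adjusted p = 0.0178). Lama3 no longer passed in the 12 deep libraries (-3.11, adjusted p = 0.0604). The other collagen IV chains, Col4a3 to Col4a6, were too low to test, with a summed level of at most 2.60 CPM in any deep library.

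Receptors for these matrix proteins went in both directions, with 4 of 13 tested lower and 2 higher (6 and 3 in the 12 deep libraries). The shares of all genes were 9.99% and 12.1% in 14 libraries and 19.2% and 21.8% in 12. The counts called higher lie near those shares. Bcam, a receptor of the laminin α5 chain that Lama5 encodes, was at 521 to 844 CPM in deep WT libraries and 42.7 to 133 CPM in Mettl3-KO, a log2 difference of -3.11 ± 0.37 (edgeR adjusted p = 8.02e-05). Integrin subunits were lower too. Log2 differences were -1.55 ± 0.34 for Itga3, an α subunit that binds laminin α5, and -0.85 ± 0.20 and -0.86 ± 0.23 for Itga6 and Itgb1, which pair as a laminin receptor. Itgb4, the partner of Itga6 in hemidesmosomes, was at 12.0 to 17.6 CPM in WT and 1.86 to 3.39 CPM in Mettl3-KO, and passed only in the 12 deep libraries (-2.38, adjusted p = 1.35e-06; -2.33, adjusted p = 0.281 in 14). Dag1, the precursor of dystroglycan, which anchors laminin at the cell surface, was higher in Mettl3-KO, at 124 to 185 CPM in WT and 224 to 360 CPM in Mettl3-KO (0.85 ± 0.21, adjusted p = 9.12e-03). The syndecan Sdc1 was also higher (1.75 ± 0.32). Fitted labelled RNA at 0 h was lower for Bcam (-3.60), Itga3 (-2.63), Itgb4 (-3.80) and Itgb1 (-1.84). The Dag1 label was also lost more slowly in Mettl3-KO (0.41 ± 0.11 log2 per hour, edgeR adjusted p = 0.0277). Dag1 was the only receptor of the 13 called for its loss rate, where 2.16% of all genes were called slower.

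**Figure D5:**
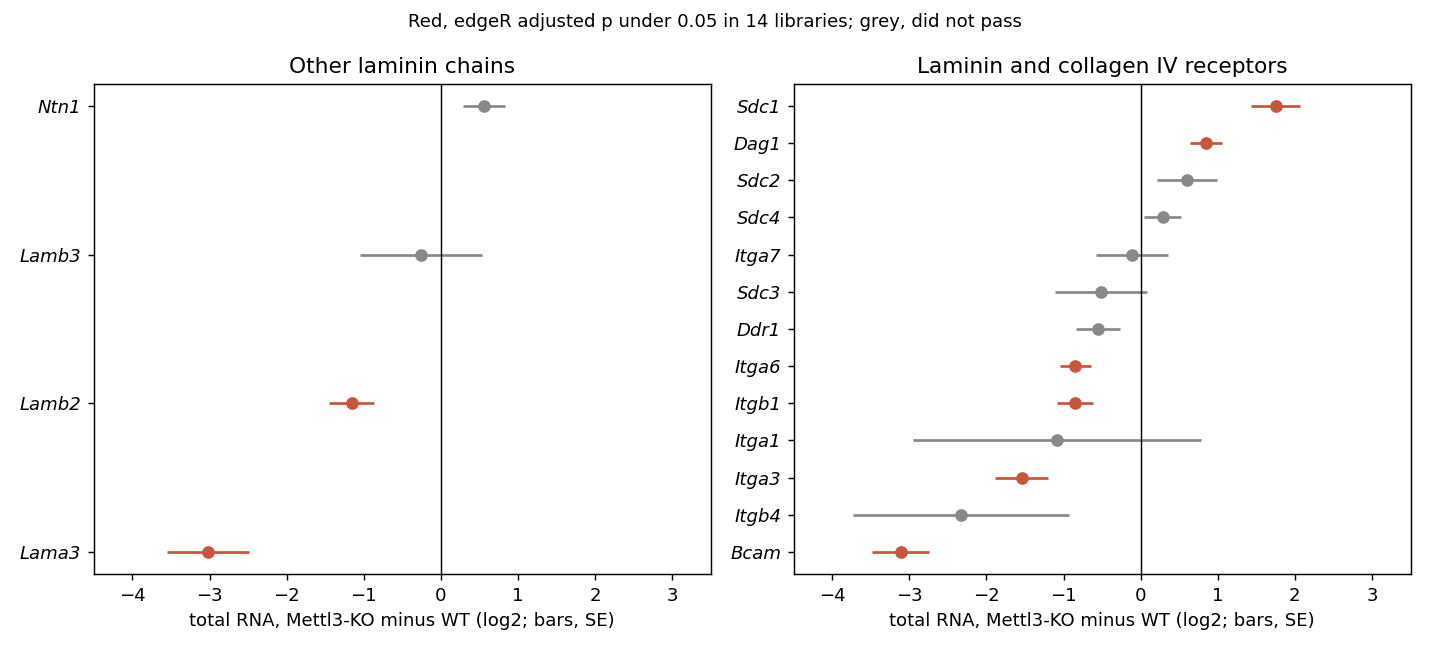
Log2 difference in total RNA, Mettl3-KO minus WT, with its standard error, for the other laminin chains and netrins (left) and the receptors (right) that could be tested in 14 libraries, those that passed in red. Lama3 (-3.02) and Bcam (-3.11) lie lowest, and Dag1 (0.85) and Sdc1 (1.75) are the receptors that were higher.

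For the next lists, the shares of all genes called lower and higher were 9.99% and 12.1% in 14 libraries and 19.2% and 21.8% in 12, and several of the counts lie near them. Of 14 other basement membrane components tested, 2 were lower, Tinagl1 (-3.09 ± 0.48), a laminin-binding matrix protein, and Col18a1 (-0.86 ± 0.26), and 1 was higher, Fbln1 (0.95 ± 0.30) (edgeR, 14 libraries; 3 and 2 in the 12 deep libraries). Of 21 enzymes and carriers that modify and export collagen, 2 were lower and 3 higher (3 and 7 in 12 libraries), which is about the share among all genes in 14 libraries. Loxl2, an oxidase that cross-links collagen IV, was lower (-2.55 on the log2 scale), as was the collagen galactosyltransferase Colgalt1 (-0.68). Plod2, a lysyl hydroxylase, was higher (1.33), as were P3h3 (1.81) and the collagen chaperone Serpinh1 (0.91). Of 15 proteases and inhibitors tested, 2 were lower and 3 higher (2 and 4 in 12 libraries). Plaur, the urokinase receptor, was lower (-2.43), as was the procollagen protease Bmp1 (-1.44), while the matrix protease Adamts1 (5.26) and the protease inhibitors Timp2 (1.60) and Timp1 (1.07) were higher. Among 6 tested matricellular proteins related to Sparc, 0 were called in 14 or 12 libraries.

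Some endoderm markers were also called in this comparison. Of 6 endoderm transcription factors tested, 3 were lower in Mettl3-KO and 1 was higher. Gata4 was at 2.37 to 9.47 CPM in deep WT libraries and 0.129 to 0.828 CPM in Mettl3-KO (-3.55 ± 0.47, edgeR adjusted p = 1.65e-04), Gata6 at 3.13 to 9.76 and 0.460 to 1.12 CPM (-2.80 ± 0.44) and Sox7 at 4.89 to 14.5 and 0.374 to 1.70 CPM (-3.50 ± 0.47). Sox17 did not pass (-1.90 ± 0.73, adjusted p = 0.0779), and Foxa2 was higher (1.86 ± 0.57). The summed level of the 7 listed factors was 29.0 to 35.3 CPM in deep WT libraries and 7.11 to 15.7 CPM in Mettl3-KO. Of 10 tested effector genes of parietal and visceral endoderm, of 17 listed, 2 were lower, the proteoglycan core protein Srgn (-5.30 ± 0.58) and Apoe (-0.85 ± 0.28), and 1 was higher, Cldn6 (1.27 ± 0.36); 3 were lower and 3 higher in the 12 deep libraries. Their summed level was 1321 to 2131 CPM in WT and 608 to 1162 CPM in Mettl3-KO, most of it Apoe. Afp, the defining serum protein of visceral endoderm, was at 0 in every deep library, and Ttr was at 0 in every deep Mettl3-KO library and at no more than 0.593 CPM in WT. Of 7 tested fibroblast and feeder genes, of 12 listed, Acta2 was lower (-1.12 ± 0.32) and Col5a2 higher (4.89 ± 0.78), with a summed level of 289 to 355 CPM in WT and 205 to 416 CPM in Mettl3-KO, and Postn was at 0 in every deep library. The part of these marker genes in the differences of the basement membrane genes was not tested.

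The genes whose pattern was most like the mean of Lama1, Lamb1 and Lamc1 over the 12 deep libraries were Mras (Pearson r 0.980), a Ras-related GTPase, Tmem181a (0.979), Gpa33 (0.976), a cell surface glycoprotein, Hs2st1 (0.973), which sulfates heparan sulfate, and Tor1aip2 (0.973). These correlations are of log2 CPM and are descriptive, since the 12 libraries fall into WT and Mettl3-KO and every gene that differs by genotype shares that split. Mras was at 302 ± 68.1 CPM (SD, n = 5) in WT and 40.6 ± 8.73 (n = 7) in Mettl3-KO, and Gpa33 at 62.8 ± 22.1 and 4.52 ± 1.01 CPM.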

How the data were processed

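The authors deposited whole-number counts per gene symbol, 1 table of total counts and 1 of T>C conversion counts, with 1 column per library. Tools listed in the submitters' processing notes are Trim Galore (0.4.0), featureCounts, Subread (1.5.0) and edgeR (3.32.1), with mm10 as build. No source used here gives the aligner, how conversions were called, or if they were counted by read or by base. A deposited table of log2 values was not used, and other deposited values, the authors' fitted half-lives, are named as theirs.

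Counts were tested with edgeR 4.0.16 in R 4.3.3 (robust quasi-likelihood F tests, TMM scaling, Benjamini-Hochberg over all genes, threshold 0.05). Total RNA needed at least 10 counts in at least 6 libraries, with chase time as a factor and genotype. Conversion counts needed at least 10 in at least 3 libraries, were scaled by the TMM-scaled total count and were fitted by genotype, hours and their interaction. All libraries shared each fit, so a lone WT library at 0 h or 3 h is assumed to vary like the others. Standard errors are the effect over the root of its F statistic. CPM uses TMM-scaled totals. The entry without a gene name (0.00707% to 0.0312% of a library) was left out. DESeq2 1.42.0, other scalings, filters and left-out libraries were alternatives. Simulated counts were used to check the genotype fit of total RNA and the label slopes with each gene's own total as offset. The other fits were not checked in this way. Chain ratios used counts plus 0.5.

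The 10 genes and all gene lists were chosen with earlier results of these data known. Of the lists, 2 genes are not reported here and are in no list count. The text names all 10, Mettl3, up to 4 called genes per list, direction and comparison, Gata4, Gata6, Sox7 and Sox17, and the 5 genes most alike in pattern. Ddx3y, Eif2s3y, Afp, Ttr and Postn were named after their values were seen.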

Additional observations from a re-analysis of the deposited data

Results flagged for a closer look

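Each gene's CPM was examined for a library far from the rest of its genotype, in 20 groups of 6 WT or 8 Mettl3-KO libraries, where chance alone marks about 1 group in 20. In 4 of them a library stood apart. Col4a1 was at 320 CPM in the library labelled WT 1 h replicate 2, where the next WT library was at 50.8 CPM, and at 471 CPM in Mettl3-KO 3 h replicate 2, where the next was at 18.2 CPM. These are the shallow libraries, with 15 and 160 counts of Col4a1. In the second, 1.88% of the Col4a1 counts were labelled, against 6.90% of the whole library. Lamb1 was at 64.1 CPM in the library labelled WT 1 h replicate 2, on 3 counts, where the next WT library was at 88.6 CPM. Nid2 was at 55.7 CPM in Mettl3-KO 1 h replicate 2, a deep library, where the next was at 124 CPM. The same library held the lowest Mettl3-KO value of Lamc1 (22.7 CPM) and the highest of Lamb1 (102 CPM) and Lama1 (17.4 CPM).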

How the results depend on the processing

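The counts of members called lower in total RNA, in all the fits run, lay between 5 and 6, and none was called higher. For the alternative fits in this section, other than those with shares given above, the share of all genes called was not counted. The calls compare lines that differ beyond Mettl3, and labelled values of Col4a2 and of the shallow libraries rest on few counts. Members whose total RNA changed over the chase in Mettl3-KO numbered 1 without the 2 shallow libraries or with DESeq2, and 0 to 1 as each library was left out (1 without Mettl3-KO 3 h replicate 2). With the gene's own total as offset, 0 members were lower in labelled RNA at 0 h, with or without the shallow libraries. The fit with that offset and without the shallow libraries was an alternative added after seeing the data. On the main scale, the library's total, 3 to 6 members were lower as each library was left out. Members that lost label numbered 0 in WT and 0 in Mettl3-KO with TMM on the conversion counts, which by construction removes the loss common to all genes, and 0 and 0 in 0, 1 and 3 h alone, which use fewer libraries.
With TMM on the conversion counts the label slopes in WT turned to 0.12 for Lama1, 0.18 for Lamb1, 0.087 for Lamc1, 0.18 for Col4a1, 0.32 for Col4a2, 0.21 for Nid1, 0.052 for Nid2, 0.098 for Hspg2 and 0.25 for Sparc. In Mettl3-KO they turned to 0.031 for Lama1, 0.051 for Lama5, 0.18 for Lamb1, 0.13 for Lamc1, 0.25 for Col4a1, 0.17 for Col4a2, 0.14 for Nid1, 0.24 for Nid2, 0.12 for Hspg2 and 0.32 for Sparc. The same scaling gave Nid1 0.11 in labelled RNA at 0 h and -0.068 in loss rate difference. In 0, 1 and 3 h alone the slope turned to 0.015 for Sparc in WT and 0.033 for Lama1 in Mettl3-KO, and the loss rate difference to 0.28 for Lama1, -0.36 for Lama5, -0.22 for Lamb1, -0.068 for Lamc1, 0.27 for Col4a2, -0.23 for Nid1, -0.19 for Hspg2 and -0.16 for Sparc; the cause was not tested. The Lama1 difference was 0.081 with its own total as offset, 0.088 with that offset in 12 libraries and 0.00093 in the 12 libraries alone.
As each library was left out, differences that crossed 0 ranged from -0.25 to 0.013 for Nid1 in total RNA, and in loss rate from -0.072 to 0.074 for Lama1, -0.0036 to 0.16 for Lamb1, -0.018 to 0.39 for Lamc1, -0.13 to 0.033 for Col4a2 and -0.035 to 0.052 for Nid1. The chain ratio differences ranged from -1.25 to -0.69 for Lama1 to Lama5 and from -2.10 to -1.46 for Lamc1 to Lamb1.
Same-numbered libraries showed almost no shared deviation at 8 h, where all are deep (correlation -0.0093 over 14641 genes). The value of 0.017 at 1 h rests on the library of 49159 counts, whose counting noise could hide a pairing. Whether replicate numbers pair the libraries at other times is therefore not settled. With the replicate block 5 members were lower in total RNA, 3 were lower in labelled RNA at 0 h, 9 lost label in WT and 7 in Mettl3-KO, and 0 were called for their loss rate.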
